A study of Mus musculus with 4 samples.

Results

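The 9 heat shock protein genes Hspa1a, Hspa1b, Hspa8, Hsph1, Dnajb1, Hsp90aa1, Hsp90ab1, Hspd1 and Hspe1 were followed across the immune cells of an intracranial mouse glioma. They were taken by gene symbol from the 31253 genes of the count tables, with earlier results of these data known when the list was drawn up. CT2a, a mouse glioma cell line, had been implanted into the brain of C57Bl/6 mice that were either wild type (WT) or deficient in CaMKK2 (CaMKK2 KO), a kinase activated by calcium and calmodulin. On day 14 the tumor-bearing hemispheres were dissociated with enzymes in a warm bath, and live CD45+ cells were sorted and run as single cells. The KO is present in every cell of the host and not in the implanted tumor cells. Each genotype comprised 4 adult female mice, marked with 4 hashtag antibodies and loaded together on 1 10X channel, so that genotype and channel cannot be told apart in anything that follows. The paper lists its C57BL/6J mice as purchased and its KO mice as provided by an author at Duke University. Animal source may therefore also run with genotype.

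Heat shock proteins are chaperones that bind unfolded or newly made proteins and use ATP to fold, hold or hand them on. Cells make some of them all the time, such as Hspa8 (the constitutive Hsc70) and Hsp90ab1 (Hsp90 beta), and others mainly after stress, such as Hspa1a and Hspa1b (both inducible Hsp70). Stress acts on these genes through heat shock factor, which binds runs of short inverted repeats, called heat shock elements, before the transcription start. Hspd1 (Hsp60) and Hspe1 (Hsp10) form the folding chamber of mitochondria. In sorted immune cells the inducible members are also known to respond to handling and digestion.

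The members lie on 6 chromosomes of the mouse genome (build mm10, GENCODE annotation). Hspa1a (chr17:34969190-34972156) and Hspa1b (chr17:34956436-34959238) are neighbouring genes on the minus strand, 9951 bases apart. Their products are nearly identical, and how reads that match both were divided between them is uncertain, so their sum is given beside the single genes. Hsp90ab1 (chr17:45567775-45573271, minus strand) lies farther along the same chromosome, and Hsp90aa1 (Hsp90 alpha) at chr12:110690605-110702728 on the minus strand. Hspa8 is at chr9:40800984-40810087 on the plus strand, Dnajb1 (Hsp40, a cochaperone of Hsp70) at chr8:83608193-83612653 on the plus strand and Hsph1 (Hsp110, which exchanges the nucleotide on Hsp70) at chr5:149614287-149636376 on the minus strand. Hspd1 (chr1:55077835-55088243, minus strand) and Hspe1 (chr1:55088132-55091307, plus strand) face away from each other and overlap at their 5′ ends.

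The promoters of the inducible pair are shown because Hspa1a and Hspa1b carry the main genotype result and moved together. RefSeq promoter entries (GRCm38.p6) matched 6 of the 9 members, and Hsp90aa1, Hsp90ab1 and Hspa8 had no entry. The 250 bases before the start were searched for a pair of facing units, GAANNTTC or TTCNNGAA, each of which reads the same on the other strand, and for triples, GAANNTTCNNGAA or TTCNNGAANNTTC, which overlap the pairs. Capitals mark the matches. The sequences below run 5′ to 3′ on the minus strand, Hspa1a at chr17:34972157-34972406 and Hspa1b at chr17:34959239-34959488.
Hspa1a: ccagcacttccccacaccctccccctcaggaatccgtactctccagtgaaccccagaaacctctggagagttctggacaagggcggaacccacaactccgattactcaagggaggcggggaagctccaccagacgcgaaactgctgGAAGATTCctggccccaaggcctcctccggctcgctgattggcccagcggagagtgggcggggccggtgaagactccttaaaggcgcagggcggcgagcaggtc
Hspa1b: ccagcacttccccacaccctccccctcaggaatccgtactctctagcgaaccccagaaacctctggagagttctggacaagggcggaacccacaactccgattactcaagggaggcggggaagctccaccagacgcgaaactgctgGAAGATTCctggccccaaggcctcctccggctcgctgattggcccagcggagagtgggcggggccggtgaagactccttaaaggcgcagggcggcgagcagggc
These stretches were 98.8% identical. They differed at 3 bases, C44T, T47C and T249G, counted from 1 at the printed 5′ end with the base of Hspa1a first. Each held 1 pair, from 104 to 97 bases before the start.

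A stretch lies between the start of Hspe1 and the second listed start of Hspd1, and Hsph1 has a pair close to its first listed start. The 30 bases around each are given here, Hspe1 on the plus strand at chr1:55088053-55088082 and Hsph1 on the minus strand at chr5:149636351-149636380.
Hspe1: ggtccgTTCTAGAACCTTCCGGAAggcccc
Hsph1: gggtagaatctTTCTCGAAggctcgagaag
The Hspe1 stretch held an 18-base run of 3 overlapping pairs and 2 triples, 89 to 72 bases before the Hspe1 start. Read on the other strand, the same run lay 144 to 127 bases before the second listed start of Hspd1 (55087932). By the annotated and first listed start of Hspd1 (55088243) it lies within that gene. The Hsph1 pair lay 33 to 26 bases before its first listed start (149636336). The annotated 5′ end of Hsph1 is at 149636376, so by the annotation the pair lies within the gene. Pairs occurred in 12.9% of the 27025 promoters of the same length and triples in 0.400%. These letters were not found in the windows of Dnajb1 or of the first listed start of Hspd1. A match describes the sequence and was not tested for binding.

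The tables held 6689 WT and 7271 CaMKK2 KO barcodes, of which 42 were the same in both libraries. After removal of hashtag doublets, cells without a hashtag and outlying cells, 5225 WT and 5770 KO cells remained, with median depths of 12708 and 11535.5 unique molecular identifiers (UMIs, counted molecules) per cell. The cells were gated on marker genes that are not members, and 10193 of 10995 fell into 11 classes. All 6 NK-like markers, 8 of 9 T-like, 6 of 7 microglia-like and 7 of 10 monocyte-like markers were highest in their own class, but only 3 of 6 cDC2-like and 2 of 7 macrophage-like markers were, since C1qa, C1qb, C1qc and Mertk were higher in microglia-like and Fcgr1 in monocyte-like cells. Ptprc, which encodes CD45, was at 464 to 1053 CPM in every mouse (UMIs per 1000000 UMIs of all genes). Camkk2 was at 28.5, 29.3, 38.4 and 27.8 CPM over all cells of WT mice 1 to 4 and at 14.8, 17.9, 13.4 and 22.4 CPM in KO mice 1 to 4, lower in every KO mouse but still counted. Where the deletion lies is not given in the sources used here, so counts of 3′ ends do not show whether it is present. UMIs were summed over the cells of a class within each mouse, and a level (CPM) is given per 1000000 UMIs of that class in that mouse, with the mouse as the replicate. Values are given as mean ± SD, and a gene is said to have changed where the Benjamini-Hochberg adjusted p of edgeR's quasi-likelihood test over all genes tested was under 0.05.

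Over all cells of a mouse, Hspa1a was at 179, 155, 176 and 290 CPM in WT mice 1 to 4 and at 129, 86.4, 94.5 and 104 CPM in KO mice 1 to 4. Every WT mouse stood above every KO mouse, and WT mouse 4 was the highest. These whole-sample levels mix classes in different shares, so the classes were compared one at a time.

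The 9 members were not spread over the classes in one common way. Among the 7 classes present in all 8 mice, the inducible Hsp70 genes were highest in monocyte-like and cDC2-like cells and lowest in lymphoid cells, while the Hsp90 and mitochondrial chaperones were highest in NK-like cells. Hspa1a averaged 261 ± 146 CPM in monocyte-like cells, 247 ± 117 in cDC2-like cells, 160 ± 98.3 in microglia-like cells and 141 ± 70.2 in macrophage-like cells. It then dropped to 73.2 ± 36.5 CPM in T-like, 48.5 ± 34.9 in B-like and 36.4 ± 35.4 in NK-like cells (SD, n = 8). The first 4 of these classes overlapped widely between mice, and the 1 step in the order that held in 8 of 8 mice was from macrophage-like to T-like cells. Hspa1b ran from 108 ± 77.0 CPM in monocyte-like to 39.0 ± 32.3 in NK-like cells in the same order, and for it no neighbouring step held in all mice.

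**Figure D1:**
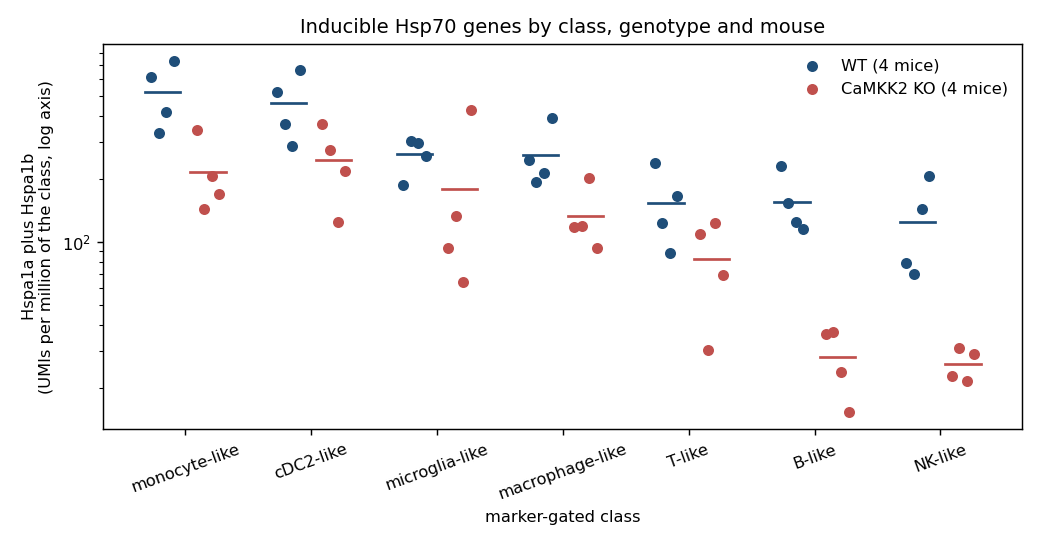
Summed level of Hspa1a and Hspa1b in each marker-gated class (UMIs per 1000000 UMIs of the class, log axis), 1 point a mouse, WT and CaMKK2 KO side by side. In NK-like cells the 4 WT mice lie between 69.9 and 206 CPM and the 4 KO mice between 21.5 and 31.1 CPM.

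Hsp90ab1 and Hspd1 were highest in NK-like cells, second in T-like cells and lowest in monocyte-like cells, where Hspa1a was highest. Hsp90ab1 averaged 2007 ± 294 CPM in NK-like and 1781 ± 139 in T-like cells against 1356 ± 119 in macrophage-like, 1180 ± 159 in microglia-like and 999 ± 224 in monocyte-like cells. Macrophage-like cells stood above microglia-like cells in 8 of 8 mice, and NK-like above T-like cells in 7. Hspd1 showed the most ordered pattern. Its level was 214 ± 37.4 CPM in NK-like, 161 ± 13.5 in T-like and 127 ± 27.0 in macrophage-like cells, with both steps held by 8 of 8 mice, and 65.8 ± 10.5 CPM in monocyte-like cells, below cDC2-like cells (90.3 ± 20.1 CPM) in 8 of 8. Its partner Hspe1 was also lowest in monocyte-like cells, at 144 ± 34.9 CPM, with macrophage-like cells (261 ± 40.9 CPM) above them in 8 of 8 mice, while NK-like, B-like, T-like and cDC2-like cells (346, 338, 322 and 301 CPM) were not in a fixed order.

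Hspa8 and Hsp90aa1 had no neighbouring classes whose order held in every mouse. Hspa8 was highest in monocyte-like cells, at 2520 ± 623 CPM, and lowest in B-like cells, at 1126 ± 493 CPM. Hsp90aa1 ran from 449 ± 83.4 CPM in NK-like to 323 ± 73.9 in microglia-like cells. The cochaperones were different again. Dnajb1 was highest in microglia-like cells, at 101 ± 34.4 CPM, above T-like cells (76.9 ± 15.6 CPM) in 8 of 8 mice, and lowest in macrophage-like cells, at 45.2 ± 11.5 CPM. Hsph1 was highest in T-like cells, at 61.1 ± 26.8 CPM, above NK-like cells (43.1 ± 25.7 CPM) in 8 of 8 mice, and lowest in microglia-like cells, at 17.4 ± 8.46 CPM. Over the 9 members, 9 of the 54 neighbouring pairs had the same order in all 8 mice.

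The contrast of T-like with macrophage-like cells, made within mice, put numbers on this. All 9 members passed the test, 6 higher and 3 lower in T-like cells, where 73.8% of all genes tested differed between these classes. Hsph1 was the most shifted. It was at 42.8, 44.6, 101 and 97.2 CPM in T-like cells of WT mice 1 to 4 and at 47.5, 56.0, 27.1 and 72.6 CPM in those of KO mice 1 to 4. In macrophage-like cells of the same mice it was at 13.8, 24.9, 42.3 and 47.7 CPM and at 19.2, 21.0, 12.7 and 20.1 CPM. T-like cells were higher in each of the 8 mice, by 1.26 ± 0.11 (SE) on the log2 scale (edgeR, adjusted p = 6.21e-08).

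Dnajb1 was higher in T-like cells by 0.75 ± 0.13 (edgeR, adjusted p = 1.24e-04) and Hsp90ab1 by 0.40 ± 0.06 (adjusted p = 5.46e-05). Hspa1a and Hspa1b were lower, with log2 fold changes of -0.999 ± 0.19 (adjusted p = 2.95e-04) and -0.45 ± 0.15 (adjusted p = 0.0154). The median gene was 0.15 higher in T-like cells on this scale. Hspd1 (0.36), Hspe1 (0.31) and Hsp90aa1 (0.28) had the smallest increases, and with TMM scaling, under which the median gene stood at -0.02, they no longer passed (0.19, 0.13 and 0.10, adjusted p = 0.0592, 0.185 and 0.244). The small drops of Hspa8 (log2 fold change -0.16, adjusted p = 0.0297) and of Hspa1b lost their calls when single mice were left out: Hspa1b without WT mouse 4 (adjusted p = 0.0506) or KO mouse 3 (0.0509), and Hspa8 without WT mouse 4 (0.0637), KO mouse 1 (0.0757) or KO mouse 4 (0.0747).

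The other chaperone groups are given by their counts in the same contrast, to be read beside the 73.8% of all genes called. Of 17 Hsp90 cochaperones tested, 76.5% were called, 12 higher and 1 lower in T-like cells (median log2 fold change 0.47), among them Unc45a (1.18), a myosin chaperone, and Cdc37l1 (0.97). Of 14 subunits of the CCT chaperonin and of prefoldin, which fold actin and tubulin, 9 were higher and 0 lower (64.3% called, median 0.24). Of 19 chaperones and stress genes of the endoplasmic reticulum, 0 were higher and 16 lower (84.2% called, median -0.73), with Pdia6 (-1.51), a disulfide isomerase, and Xbp1 (-1.36), a factor of the unfolded protein response, among the most reduced. Of 23 further genes of the Hsp70 system, 11 were higher and 3 lower (60.9% called, median 0.17), from Dnaja4 (5.46) to Dnajb14 (-2.002), both Hsp40 proteins. Of 14 mitochondrial chaperones and proteases 3 were higher and 0 lower (21.4% called, median 0.08). Of 5 small heat shock proteins and factors 1 was higher and 2 lower (60.0% called), including Hmox1 (-4.79), which degrades heme. Of 18 immediate early genes, which are switched on within minutes of a stimulus, 3 were higher and 10 lower (72.2% called, median -0.61).

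Microglia-like cells differed from macrophage-like cells in 4 members, where 52.6% of all genes tested differed. Dnajb1 was at 110, 110, 76.2 and 105 CPM in microglia-like cells of WT mice 1 to 4 and at 105, 72.3, 60.1 and 171 CPM in KO mice 1 to 4. In macrophage-like cells it was at 41.3, 37.1, 59.3 and 62.9 CPM and at 31.1, 48.6, 34.6 and 47.0 CPM. Microglia-like cells were higher in each of the 8 mice, and the difference of 1.16 ± 0.15 on the log2 scale passed the test (edgeR, adjusted p = 1.09e-05).

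The other 3 were lower in microglia-like cells. Hsph1 had a log2 fold change of -0.49 ± 0.13 (edgeR, adjusted p = 0.00545), Hspa8 of -0.27 ± 0.08 (adjusted p = 0.00922) and Hsp90ab1 of -0.20 ± 0.07 (adjusted p = 0.0217), the last without its call when WT mouse 4 (adjusted p = 0.0507) or KO mouse 3 (0.0693) was left out. Hspa1a (0.07 ± 0.27) and Hspa1b (0.02 ± 0.31) did not pass, with 95% intervals from -0.56 to 0.70 and from -0.71 to 0.76. Without the mouse as a block Dnajb1 alone of the 9 kept its call. All 18 immediate early genes were higher in microglia-like cells (median log2 fold change 1.12 against 0.14 for all genes), led by Egr1 (3.94) and Klf2 (2.29). Of 14 CCT and prefoldin subunits, 10 were lower (71.4% called against 52.6% of all genes, median -0.24). The part of the immediate early genes in the Dnajb1 difference was not tested. The other groups were called less often than the 52.6% of all genes. The Hsp70 system had 5 higher and 2 lower of 22 (31.8% called) and Hsp90 cochaperones 4 and 3 of 17 (41.2%). Endoplasmic reticulum genes had 6 and 1 of 19 (36.8%) and mitochondrial chaperones 2 and 1 of 14 (21.4%). Small heat shock proteins and factors had 0 and 1 of 5 (20.0%).

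Cycling cells were set against non-cycling cells of the same class by the number of cell cycle genes with a UMI. That number was not corrected for depth, and cycling cells had more UMIs per cell in every mouse compared. In T-like cells of WT mouse 2, 15 cycling cells held 314268 UMIs and 168 non-cycling cells 1527212. In macrophage-like cells of WT mouse 1, 52 cycling cells held 1239549 and 375 non-cycling cells 5723302. The part of depth in the differences below was not tested. Cycling cells had higher Hsp90 and Hsp60 transcripts and lower inducible Hsp70 transcripts in both T-like and macrophage-like cells. In T-like cells, with WT mouse 1 left out for too few cycling cells, 7 members passed the test, 5 higher and 2 lower, where 45.0% of all genes tested differed. Hsp90aa1 was at 535, 520 and 542 CPM in cycling T-like cells of WT mice 2 to 4 and at 573, 701, 698 and 729 CPM in KO mice 1 to 4. In non-cycling T-like cells of the same mice it was at 310, 440 and 441 CPM and at 404, 357, 306 and 394 CPM. Cycling cells were higher in 7 of 7 mice, and the groups did not overlap.

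The increase of Hsp90aa1 was 0.70 ± 0.10 on the log2 scale (edgeR, adjusted p = 1.04e-05). Hspd1 rose by 0.67 ± 0.10 (adjusted p = 2.57e-05), Hsp90ab1 by 0.61 ± 0.05 (adjusted p = 1.32e-08) and Hspa8 by 0.43 ± 0.06 (adjusted p = 5.76e-06). Hspe1 passed narrowly, at 0.23 ± 0.09 (adjusted p = 0.0486), and did not when any of WT mice 3 and 4 and KO mice 2, 3 and 4 was left out (adjusted p from 0.0882 to 0.183). Dnajb1 (0.01 ± 0.13) and Hsph1 (0.09 ± 0.15) did not pass.

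Hspa1a moved the other way. It was at 19.1, 15.0 and 23.9 CPM in cycling T-like cells of WT mice 2 to 4 and at 7.99, 33.9, 36.3 and 50.5 CPM in KO mice 1 to 4, against 97.6, 60.8 and 144 CPM and 114, 11.8, 101 and 56.9 CPM in non-cycling cells. It was lower in cycling cells in 6 of 7 mice, with KO mouse 2 the exception. Over all T-like cells, 1 cell held 27 of the 48 Hspa1a UMIs of KO mouse 2 and 1 held 126 of the 187 of KO mouse 1. By the levels above, the first lay among the cycling and the second among the non-cycling cells, so the exception rested on 1 cell. The log2 fold change of Hspa1a was -1.51 ± 0.33 (edgeR, adjusted p = 0.00101), and that of Hspa1b was -1.45 ± 0.29 (adjusted p = 4.68e-04).

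In macrophage-like cells the comparison rested on 6 mice, KO mice 2 and 4 having too few cycling cells, and 5 members passed, 3 higher and 2 lower, where 34.9% of all genes tested differed. Hspd1 was at 164, 231, 195 and 220 CPM in cycling cells of WT mice 1 to 4, at 178 CPM in KO mouse 1 and at 176 CPM in KO mouse 3. In non-cycling cells of these mice it was at 104, 103, 139, 154, 120 and 99.0 CPM. All 6 mice were higher in cycling cells and the groups did not overlap, with a log2 fold change of 0.70 ± 0.09 (edgeR, adjusted p = 8.72e-06). Hsp90aa1 rose by 0.42 ± 0.07 (adjusted p = 1.22e-04) and Hsp90ab1 by 0.27 ± 0.05 (adjusted p = 3.27e-04).

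Hspa1a in cycling macrophage-like cells was at 42.8, 91.7, 86.2 and 248 CPM in WT mice 1 to 4, 69.8 CPM in KO mouse 1 and 24.5 CPM in KO mouse 3. In non-cycling cells it was at 202, 144, 175, 312, 93.6 and 160 CPM. It was lower in cycling cells of 6 of 6 mice (log2 fold change -1.10 ± 0.22, edgeR, adjusted p = 9.16e-04), and Hspa1b was lower by as much (-1.10 ± 0.15, adjusted p = 1.65e-05). Both calls were lost when outlying cells were kept (-0.32 and -0.11, adjusted p = 0.552 and 0.858). Among the kept outlying cells were single cells full of Hspa1a: 1 cell held 283 of the 761 Hspa1a UMIs of WT mouse 2, and in KO mouse 2, which then entered the fit, all 192 UMIs were in 1 cell.

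The groups around the members are given by their counts, beside the 45.0% of all genes called in T-like and the 34.9% called in macrophage-like cells. Of 14 CCT and prefoldin subunits, 12 were higher and 1 lower in cycling T-like cells (median log2 fold change 0.44 against -0.06 for all genes), and 12 higher and 1 lower in cycling macrophage-like cells (median 0.41 against 0.07), which is 92.9% called in each. Tcp1, a CCT subunit, rose by 0.80 and 0.65. Endoplasmic reticulum chaperones had 10 higher and 0 lower of 19 in T-like cells, led by Sdf2l1 (1.38), and 11 and 0 of 19 in macrophage-like cells, led by Hsp90b1 (0.58), the Hsp90 of that compartment (52.6% and 57.9% called). Hsp90 cochaperones had 5 higher and 1 lower of 17 in T-like cells and 8 and 1 of 17 in macrophage-like cells (35.3% and 52.9% called), including Nudc, which guides dividing nuclei (0.93 and 0.72), and Ptges3, the p23 of the Hsp90 cycle (0.75 in macrophage-like cells). The Hsp70 system had 7 higher and 1 lower of 18 and 9 and 1 of 22 (44.4% and 45.5% called), with Hspa14 (0.87 and 0.67), an Hsp70 protein of the ribosome, rising in both. Mitochondrial chaperones had 4 higher and 0 lower of 12 and 5 and 0 of 14 (33.3% and 35.7% called), including Hspa9 (0.69 in T-like cells), the mitochondrial Hsp70. Immediate early genes fell, 14 of 16 in T-like cells (median -0.66) and 17 of 18 in macrophage-like cells (median -0.95), or 87.5% and 94.4%, among them Klf2 in the first (-1.67) and Nr4a1 in the second (-1.88). Small heat shock proteins and factors had 0 called of 2 in T-like cells. In macrophage-like cells 1 was higher and 2 lower of 5 (60.0% called), namely Hsf2 (0.65), a heat shock factor, against Hspb1 (-2.66), the small Hsp27, and Hmox1 (-0.94). The Hspa1a and Hspa1b differences and those of the immediate early genes were in the same direction in both classes, and whether they are linked was not tested.

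**Figure D2:**
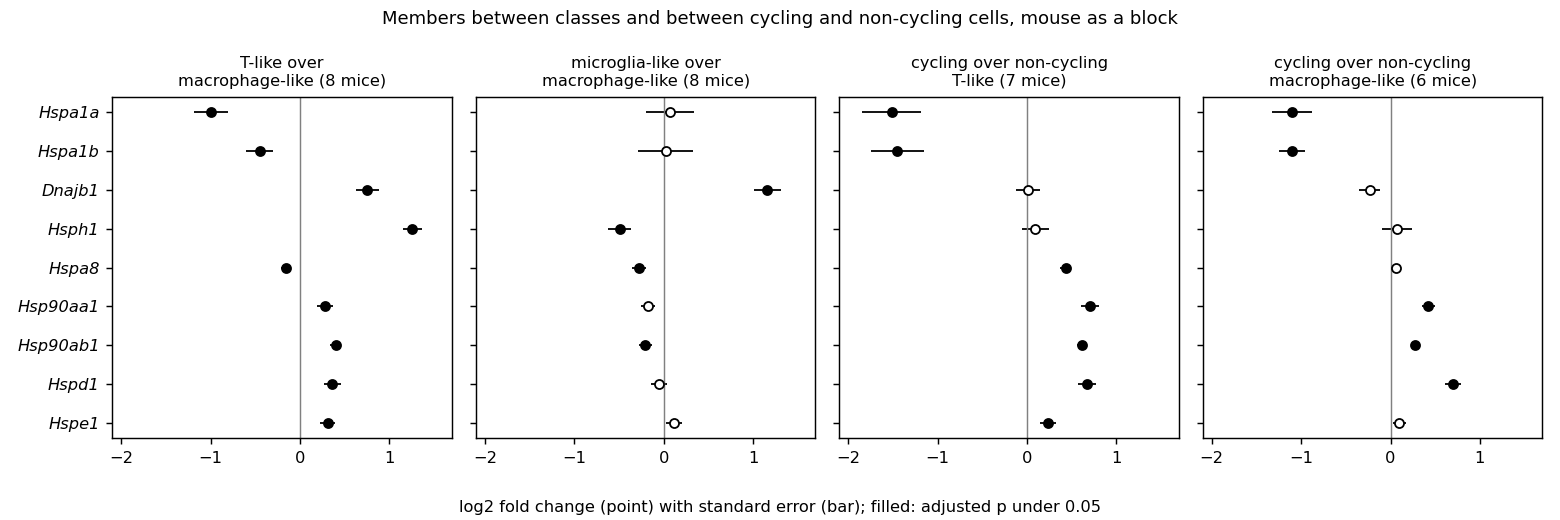
Log2 fold changes of the 9 members (points) with standard errors (bars) between T-like and macrophage-like cells, between microglia-like and macrophage-like cells, and between cycling and non-cycling cells of each class, with filled points for an adjusted p under 0.05. Hspa1a and Hspa1b lie left of 0 in both cycling panels, at -1.51 and -1.45 in T-like and both at -1.10 in macrophage-like cells, while Hspd1 lies at 0.67 and 0.70.

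The genotype comparison asked whether the members differed between immune cells from CaMKK2 KO and WT hosts. Hspa1a was called lower in KO mice in NK-like cells and Hspa1b in NK-like and monocyte-like cells, neither was called in the other 4 classes tested, and the other 7 members had no call by this test in any class. The clearest difference was in NK-like cells, where 2 members passed the test and 3.03% of all genes tested did. Hspa1a was at 41.6, 34.7, 70.2 and 105 CPM in NK-like cells of WT mice 1 to 4 and at 5.34, 17.1, 11.4 and 6.14 CPM in those of KO mice 1 to 4. Every WT mouse was above every KO mouse, the lowest WT value standing at 34.7 and the highest KO value at 17.1 CPM.

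The log2 fold change of Hspa1a in NK-like cells was -2.53 ± 0.38 (95% interval -3.46 to -1.61, edgeR, adjusted p = 0.00202). Hspa1b was at 37.4, 35.3, 73.9 and 101 CPM in WT mice and at 17.4, 14.0, 10.1 and 23.0 CPM in KO mice, again without overlap, with a log2 fold change of -2.12 ± 0.35 (adjusted p = 0.00387). For the sum of both the log2 fold change was -2.30 ± 0.31 (adjusted p = 8.71e-04). Leaving out any 1 mouse kept both calls and moved Hspa1a between -2.86 and -2.14. The KO values rested on few molecules: 8, 33, 36 and 4 UMIs of Hspa1a in 159, 262, 252 and 89 cells, of which a single cell held from 22.2 to 75.0%. In WT mice 50, 58, 95 and 213 UMIs were counted, and a single cell held from 10.3 to 20.0%.

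The remaining members in NK-like cells had log2 fold changes from -0.56 to -0.07 and did not pass. Hsp90ab1 was at 2343, 2041, 2391 and 2171 CPM in WT and at 1750, 1526, 1961 and 1873 CPM in KO mice, without overlap, with a log2 fold change of -0.33 ± 0.10 that missed the threshold (edgeR, adjusted p = 0.102). Hspd1 was at 217, 233, 282 and 219 CPM in WT and at 194, 171, 165 and 229 CPM in KO mice, with KO mouse 4 inside the WT range (-0.34 ± 0.13, adjusted p = 0.159). The median of the 9 members was -0.33, beside 0.08 for all genes tested.

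A pair of marker sums in NK-like cells separated by genotype. The 7 macrophage markers summed to 130 to 173 CPM in WT and 83.0 to 111 CPM in KO mice, lower in the KO as Hspa1a was. The 10 monocyte markers, some of which NK cells also express (Plac8, Spn), summed to 730 to 1057 CPM in WT and 1360 to 1505 CPM in KO mice. Levels in NK-like cells were also set against those over all cells of the same mouse, with macrophage markers as a measure of free RNA. These markers stood at 0.868% to 2.01% in WT and at 1.07% to 2.57% in KO mice. The sum of Hspa1a and Hspa1b stood at 29.7% to 56.2% in WT and at 12.8% to 25.9% in KO mice. Lymphoid cells with at least 3 detected genes of a myeloid list, which held Adgre1, Mertk, Fcgr1 and Ms4a7, had been left out. This gate limited the marker share, which cannot set the amount of free Hspa1a or Hspa1b RNA. Other measures overlapped between genotypes. The summed level of the 18 immediate early genes ran from 2956 to 5118 CPM in WT and from 4043 to 7552 CPM in KO mice, and Klf6 (0.68) and Jund (0.54) of that list were called higher in the KO. The median depth per cell was 7362.5 to 9398.5 UMIs in WT and 5427 to 10424.5 in KO mice. Markers of tumor, glia, neurons, vessels and red cells summed to 73.2 to 105 CPM in NK-like cells of WT mice and 86.5 to 115 CPM in those of KO mice. The part of these in the Hspa1a difference was not tested.

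In monocyte-like cells 1 member passed, where 1.91% of all genes tested did. Hspa1b was at 257, 107, 133 and 171 CPM in WT mice 1 to 4 and at 76.2, 29.5, 53.2 and 40.5 CPM in KO mice 1 to 4. The groups did not overlap, and the log2 fold change was -1.72 ± 0.33 (edgeR, adjusted p = 0.0330). The call was lost when WT mouse 3 or 4 or KO mouse 2, 3 or 4 was left out, with log2 fold changes from -1.82 to -1.53 and adjusted p from 0.0527 to 0.129.

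Hspa1a in monocyte-like cells was at 359, 226, 283 and 557 CPM in WT and at 265, 114, 153 and 129 CPM in KO mice. KO mouse 1 lay inside the WT range, and 378 of its 975 Hspa1a UMIs came from 1 cell, without which its level was 163 CPM. The log2 fold change of -1.11 ± 0.32 did not pass (edgeR, adjusted p = 0.123). The gate held 200 to 598 cells in KO and 55 to 366 in WT mice, and the monocyte markers in the neighbouring macrophage-like class summed to 1973 to 6324 CPM in KO and 633 to 2083 CPM in WT mice, with overlap in both. In monocyte-like cells, markers of tumor, glia, neurons, vessels and red cells (6.81 to 15.1 CPM in WT, 17.9 to 37.7 CPM in KO mice) and T-like markers (18.3 to 23.9 and 29.1 to 37.8 CPM) were higher in every KO mouse, and the mitochondrial percentage was lower (2.32 to 2.72 and 1.75 to 2.30). The part of these in the Hspa1b and Hspa1a differences was not tested.

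In macrophage-like cells 0 members passed edgeR's test, against 2.48% of all genes tested. DESeq2 called Hspa1a (-0.88, adjusted p = 0.0281), and the share of all genes that DESeq2 called is not given here. Hspa1a was at 171, 129, 152 and 291 CPM in WT and at 82.5, 84.7, 138 and 75.6 CPM in KO mice. KO mouse 3 lay inside the WT range and the other 3 KO mice below it. The log2 fold change was -0.96 ± 0.27 (edgeR, adjusted p = 0.0935), and for Hspa1b, at 76.0, 63.2, 60.3 and 101 CPM in WT and 35.3, 33.8, 63.2 and 17.6 CPM in KO mice, it was -0.97 ± 0.31 (adjusted p = 0.125). The median of the 9 members was -0.33, beside -0.09 for all genes tested. Without KO mouse 3 both passed (-1.20 and -1.35, edgeR, adjusted p = 0.0441 and 0.0350). Over all fits with 1 mouse left out, Hspa1a ran from -1.20 to -0.66 and Hspa1b from -1.35 to -0.76. Microglia markers in this class (316 to 419 CPM in WT, 125 to 245 CPM in KO mice) and macrophage markers (17249 to 18297 and 12828 to 17140 CPM) were lower in every KO mouse, while T-like markers (15.9 to 20.0 and 22.5 to 28.7 CPM) and those of tumor, glia, neurons, vessels and red cells (12.2 to 23.5 and 34.9 to 66.4 CPM) were higher, and their part was not tested.

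Microglia-like cells had 0 of 8 members called by edgeR and 0 by DESeq2, Hsph1 having too few UMIs to be tested. By edgeR 1.48% of all genes tested were called. Hspa1a was at 142, 205, 244 and 202 CPM in WT and at 70.3, 56.1, 43.8 and 315 CPM in KO mice, so KO mouse 4 was the highest of all 8 and the other 3 KO mice the lowest. The log2 fold change was -0.77 ± 0.50 (edgeR, adjusted p = 0.463) with all 8 mice and ran from -1.81 to -0.46 with 1 mouse left out. The value of -1.81 (edgeR, adjusted p = 0.00341) was the fit without KO mouse 4. In that mouse 43 of 171 UMIs came from 1 cell, and its level without this cell was 239 CPM. In WT mouse 2, 252 of 411 UMIs came from 1 cell, without which its level was 79.7 CPM. Markers of tumor, glia, neurons, vessels and red cells summed to 7.77 to 13.0 CPM in WT and 17.7 to 31.3 CPM in KO mice, and their part was not tested.

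In cDC2-like cells 0 of the 8 members tested were called by edgeR, where 1.73% of all genes tested were. In T-like cells it was 0 of 9, where 2.04% were. DESeq2 called 0 members in either class. Hspa1a in cDC2-like cells was at 356, 244, 195 and 475 CPM in WT and at 238, 202, 105 and 164 CPM in KO mice, with overlap (log2 fold change -0.85 ± 0.30, edgeR, adjusted p = 0.192). Hspa1b in T-like cells was at 103, 44.6, 43.2 and 62.9 CPM in WT and at 31.3, 12.2, 40.3 and 23.0 CPM in KO mice. These did not overlap, yet the log2 fold change of -1.02 ± 0.32 did not pass (adjusted p = 0.120). Hspa1a in T-like cells overlapped between genotypes, at 134, 78.1, 45.0 and 103 CPM against 78.0, 18.3, 82.4 and 46.1 CPM (-0.52 ± 0.38, edgeR, adjusted p = 0.521). Single cells weighed on these levels: 1 cell held 126 of 187 UMIs of KO mouse 1 (25.5 CPM without it), 27 of 48 of KO mouse 2 (8.06 CPM) and 25 of 47 of WT mouse 1 (68.0 CPM). In T-like cells the 20 cell cycle genes summed to 411 to 1273 CPM in WT and 1379 to 1608 CPM in KO mice and the macrophage markers to 165 to 194 and 88.3 to 142 CPM, both without overlap. With cycling cells left out the log2 fold change of Hspa1a was -0.56 (adjusted p = 0.618, edgeR). The make-up of the T-like class also differed. CD4 T-like cells numbered 13 in each of WT mice 2 to 4, fewer than 10 in WT mouse 1, and 36, 98, 53 and 43 in KO mice 1 to 4. Within CD8, CD4 and Treg-like cells Hspa1b overlapped between genotypes. The parts of the macrophage markers and of this make-up were not tested.

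**Figure D3:**
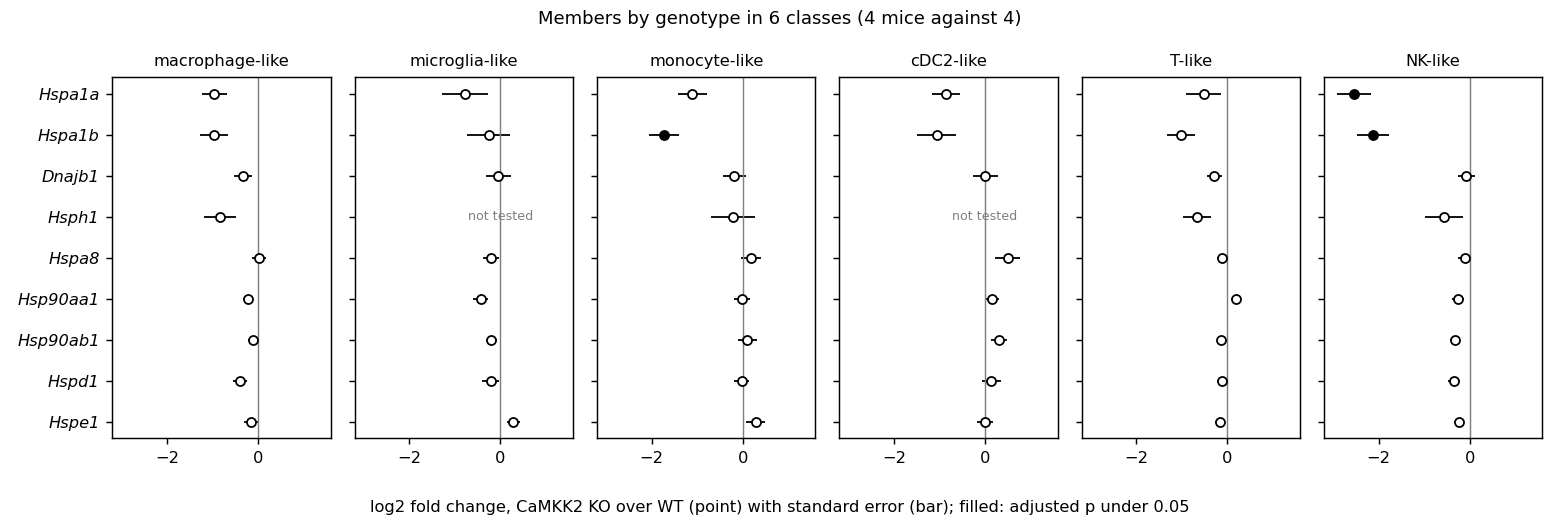
Log2 fold changes of the members, CaMKK2 KO over WT (points), with standard errors (bars) in 6 classes, 4 mice against 4, with filled points for an adjusted p under 0.05. Filled points are Hspa1a (-2.53) and Hspa1b (-2.12) in NK-like cells and Hspa1b (-1.72) in monocyte-like cells.

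Whether the genotype difference itself varied between classes was tested as an interaction. Between T-like and macrophage-like cells 0 of 9 members passed by edgeR, where 1.06% of all genes tested did. Hspa1a differed by 0.31 on the log2 scale (95% interval -0.58 to 1.20, adjusted p = 0.728), and Hsp90aa1 by 0.43 ± 0.13 (adjusted p = 0.140). A comparison of NK-like with macrophage-like cells was added after the values had been seen. There 1 member passed, Hspa1a, whose level fell further with the KO in NK-like cells (interaction -1.63 ± 0.30 on the log2 scale, 95% interval -2.35 to -0.90, adjusted p = 0.0137), where 1.49% of all genes tested passed. For Hspa1b the interaction was -1.17 ± 0.42 (adjusted p = 0.189).

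Among the wider chaperone lists few genes passed by genotype. In T-like cells Dnajb4, an Hsp40 protein, was lower in KO mice (log2 fold change -1.23, edgeR, adjusted p = 0.0235) and Sdf2l1, of the endoplasmic reticulum, was higher (0.75, adjusted p = 0.0373). Each was 1 of the 20 and 19 genes of its list tested (5.0% and 5.26%, beside 2.04% of all genes). In microglia-like cells Hmox1 (-1.62, edgeR, adjusted p = 0.0337) and Herpud1 (-0.66, adjusted p = 0.0479), of endoplasmic reticulum protein disposal, were lower. Hmox1 was the only gene of its list tested there, and Herpud1 was 1 of 19 (5.26%, beside 1.48% of all genes). In macrophage-like, monocyte-like, cDC2-like and NK-like cells 0 genes of the Hsp70 system, Hsp90 cochaperone, mitochondrial, endoplasmic reticulum, CCT and small heat shock protein lists were called. The shares of all genes called there were 2.48%, 1.91%, 1.73% and 3.03%. Of the immediate early genes Nr4a1, an orphan nuclear receptor, was lower in KO macrophage-like (-1.19, edgeR, adjusted p = 0.00368), monocyte-like (-1.02, adjusted p = 0.0234) and cDC2-like cells (-1.09, adjusted p = 0.00285), Atf3 in microglia-like (-1.13, adjusted p = 0.00611) and Btg2 in cDC2-like cells (-0.73, adjusted p = 0.0216), while Egr1 was higher in KO T-like cells (0.80, adjusted p = 0.0443). These were 1 of 18 tested in macrophage-like, monocyte-like and microglia-like cells (5.56% in each) and 2 of 18 in cDC2-like cells (11.1%). In T-like cells it was 1 of 16 (6.25%), and in NK-like cells 2 of 16 (12.5%), the Klf6 and Jund given above.

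For some members, part of the spread that genotype left over ran by mouse. For each gene, the log2 level of a mouse was set against the class mean over 8 mice in 6 classes, and the deviations were averaged over classes. For Hspa1a the 4 WT mice averaged 0.62, 0.27, 0.39 and 1.16 and the 4 KO mice -0.48, -0.85, -0.62 and -0.50, so that the genotypes separated, with WT mouse 4 highest. Genotype held 45.4% of the within-class spread of Hspa1a and 48.3% of that of Hspa1b. Mice, genotype included, held little more, at 54.0% and 53.4%. For Hsph1 genotype held 3.70%, whereas mice, genotype included, held 71.8%. The Hsph1 deviations were -0.67, -0.56, 1.00 and 0.80 in WT mice 1 to 4 and 0.03, 0.05, -0.88 and 0.23 in KO mice 1 to 4, so WT mice 3 and 4 were high in all 6 classes and WT mouse 1 and KO mouse 3 low in all 6.

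Hspa8 followed a like order at a smaller scale. Its deviations were -0.33, -0.30, 0.25 and 0.26 in WT mice and 0.06, 0.15, -0.35 and 0.26 in KO mice. WT mice 3 and 4 and KO mouse 4 were above the class mean in 6 of 6 classes, and WT mouse 2 and KO mouse 3 below it in 6 of 6. Mice held 68.0% of its within-class spread and genotype 0.871%. Dnajb1 shared part of this, with KO mouse 3 low (-0.50) and WT mouse 4 and KO mouse 4 high (0.35 and 0.31) in 6 of 6 classes. The classes of a mouse share its tumor, its dissociation and its hashtag, and these cannot be told apart. For Hspd1, 82.9% of the total spread lay between classes, and for Hspe1 77.3%. Of the within-class spread of these 2 genes, mice held 46.9% and 36.7%.

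**Figure D4:**
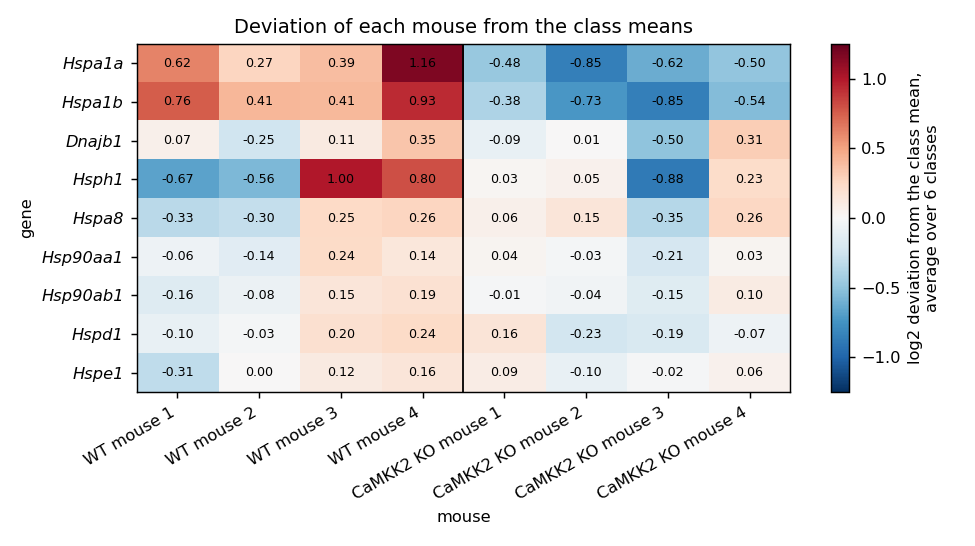
Deviation of each mouse from the class mean on the log2 scale, averaged over 6 classes, for the 9 members, with WT mice left and CaMKK2 KO mice right of the line. Hspa1a and Hspa1b split by genotype, while Hsph1 runs from -0.88 in KO mouse 3 to 1.00 in WT mouse 3.

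At the level of cells, the inducible genes were carried by a minority of lymphocytes and by more of the myeloid cells. Cells were thinned to 5000 UMIs each, which kept 431 of 541 WT and 533 of 762 KO NK-like cells and left out the shallower ones. After thinning, 13.2% of WT and 2.7% of KO NK-like cells had a UMI of Hspa1a (means over 4 mice, 22.6% and 4.21% before thinning). The WT mice spanned 6.10% to 23.6% and the KO mice 0.833% to 5.00%, which do not overlap. In monocyte-like cells the shares were 48.0% and 25.5% (56.4% and 35.2% before thinning) and in macrophage-like cells 34.0% and 19.1% (49.8% and 32.3%). In T-like cells they were 15.3% and 6.86% (21.0% and 9.97%), in cDC2-like cells 53.8% and 34.7% (68.0% and 46.3%) and in microglia-like cells 26.5% and 19.8% (40.3% and 30.7%). Among the other members, Hsp90aa1 was detected in 74.7% of thinned WT and 69.9% of thinned KO macrophage-like cells, and Dnajb1 in 19.1% and 18.0%. No class is known to lack Hspa1a or Hspa1b. Some small classes held few or no UMIs of them. In pDC-like cells, Hspa1a and Hspa1b had 0 and 0 UMIs in KO mouse 3 (24 cells) and 0 and 1 in WT mouse 2 (18 cells). WT mouse 4 (11 cells) had 93 and 60, of which single cells held 82 and 40. Neutrophil-like cells had 0 of both in WT mouse 2 (12 cells) and KO mouse 3 (10 cells). Free RNA is described only by these values and the macrophage marker levels given above, and was not tested.

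In most mice and classes Hspa1b was detected more often in cells with a UMI of Hspa1a than in cells without one. Even so, most cells with Hspa1a had no Hspa1b. Microglia-like cells of KO mouse 1 went the other way, at 8.33% and 15.2%, from 12 cells with Hspa1a. How reads that match both genes were divided is uncertain, and its part in this sharing was not tested. Among thinned macrophage-like cells, Hspa1b was detected in 34.7% of the cells with Hspa1a and in 6.75% of those without (medians over 8 mice) and in monocyte-like cells in 37.7% and 7.55%. Fewer mice had at least 10 cells with Hspa1a among the lymphocytes. The share was 31.2% in T-like cells of 5 such mice and 36.4% in NK-like cells of 4, against 6.38% and 8.12% in cells without Hspa1a of all 8 mice. Their cell-by-cell correlation in macrophage-like cells had a median of 0.52 over mice, from 0.35 to 0.68, at equal depth and within 1 library each. Hspa1a and Hspd1 had a median correlation of -0.0052 in the same cells, and Hsp90aa1 and Hsp90ab1 of 0.21.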

How the data were processed

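Live CD45+ cells of 4 WT and 4 CaMKK2 KO glioma-bearing mice were profiled with 10X Chromium 3′ v3.1 chemistry. The authors deposited raw UMI counts per gene and cell, made per the labels with bcl2fastq 2.20, Cell Ranger 4.0.0 and STAR 2.7.5c on mm10, and hashtag counts for each barcode. Mice were assigned with Seurat 5.3.0 (HTODemux, quantile 0.99), which left out 667 WT and 508 KO doublets and 48 and 67 cells without a hashtag. Cells over 3 median absolute deviations from the median in UMIs, genes or mitochondrial percentage (scuttle 1.12.0; 744 and 922) were removed. Cells were gated on marker counts, not clustered. A cell that passed several gates (81 WT, 91 KO) or none (280, 319) stayed out. So did B-like, T-like and NK-like cells with at least 3 genes of a myeloid list detected (9 WT, 22 KO). Of 5449 macrophage-like or monocyte-like cells, 889 lay within 2-fold of the macrophage threshold. A cell was called cycling with at least 8 cell cycle genes detected and non-cycling with at most 4.

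UMIs were summed per mouse and class (at least 10 cells) and genes with at least 200 UMIs were fitted with edgeR 4.0.16 (quasi-likelihood, total counts as library size), which was tested on simulated data. The mouse was a block between classes. Standard errors are the log2 fold change over the root of F. With 4 mice against 4, an exact two-sided permutation test cannot go below 0.0286, so no single-gene permutation p is given. The alternatives were TMM scaling, DESeq2 1.42.0, limma 3.58.1 on mean CPM, a minimum of 50 UMIs, outlying or cycling cells in or out, no block, and each mouse left out. All members were described in every comparison, with up to 3 called genes of largest change per list. Members and lists were chosen with earlier results of these data known.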

Additional observations from a re-analysis of the deposited data

Results flagged for a closer look

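In 108 groups of 4 mice (a member in a class and genotype) the highest or lowest mouse was set against the others by Dixon's ratio, and 5 groups had a mouse past the 95% value for 4, where chance gives about 1 in 20. Hspa1a in microglia-like cells was at 315 CPM in KO mouse 4 and at 43.8 to 70.3 CPM in the other KO mice. Hspa1a in macrophage-like cells was at 138 CPM in KO mouse 3 against 75.6 to 84.7 CPM. Hsp90aa1 in NK-like cells was at 633 CPM in WT mouse 3 against 432 to 455 CPM. Hspa8 in microglia-like cells was at 1098 CPM in KO mouse 3 against 1620 to 1701 CPM, and Dnajb1 in microglia-like cells was at 76.2 CPM in WT mouse 3 against 105 to 110 CPM.

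The genotype difference of Hspa1a was not the same in NK-like and macrophage-like cells, with an interaction of -1.63 on the log2 scale (edgeR, adjusted p = 0.0137), from a comparison added after the values had been seen.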

How the results depend on the processing

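No alternative turned the direction of a call. Of 85 counts of members called with a mouse left out, 78 stayed within 1.5 times the reported count, as did 51 of 56 under other alternatives. Counts of 0 that stayed at 0 are among these, and a count could stay within this limit while members lost their calls. Of 311 results of single members with a mouse left out, 17 lost a call and 3 gained one. Under other alternatives 13 of 197 lost a call and 2 gained one. By genotype in macrophage-like cells the count of 0 became 1 with DESeq2 and ranged from 0 to 2 when a mouse was left out, 2 without KO mouse 3. In microglia-like cells it ranged from 0 to 1, 1 without KO mouse 4. In monocyte-like cells the count of 1 became 2 with DESeq2 and ranged from 0 to 1. In NK-like cells the count of 2 became 4 with outlying cells kept. The interaction count of 0 became 1 with NK-like in place of T-like cells, a setting added after seeing the data. Causes of these shifts were not tested, beyond the fewer mice fitted when one was left out.

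Without a replicate block for the mouse, the count between microglia-like and macrophage-like cells fell from 4 to 1, and 7 of 9 members were called between T-like and macrophage-like cells, 6 against 7 in cycling T-like cells and 4 against 5 in cycling macrophage-like cells. No paired analysis was possible because, by genotype, equal hashtag numbers mark different mice. Depth limited Hsph1, not tested in microglia-like and cDC2-like cells, and Hspa1a in KO NK-like cells, counted from 4 to 36 UMIs per mouse.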

Other observations

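Smaller classes, not tested, gave these values for the sum of Hspa1a and Hspa1b, with pDC-like and neutrophil-like cells left out since only 1 KO mouse had 10 or more of them. In B-like cells it was at 230, 154, 124 and 115 CPM in WT mice 1 to 4 and at 36.1, 36.9, 23.8 and 15.4 CPM in KO mice 1 to 4, without overlap, from 15 to 87 cells a mouse. These rested on few molecules. Hspa1a had 8, 28, 17 and 6 UMIs in WT and 4, 9, 2 and 5 in KO mice. Hspa1b had 16, 23, 6 and 4 UMIs in WT and 5, 4, 1 and 3 in KO mice. In mature DC-like cells the sum was at 245, 117 and 731 CPM in WT mice 2 to 4. In KO mice 1 to 4 it was at 6.74 (1 UMI), 90.8, 33.0 and 85.4 CPM. In Treg-like cells it was at 82.5, 84.7 and 109 CPM in WT mice 2 to 4 and at 25.2, 20.3, 34.0 and 39.8 CPM in KO mice. In cDC1-like cells it was at 424, 505, 428 and 814 CPM in WT mice and at 299 and 252 CPM in KO mice 2 and 3. CD4 T-like cells overlapped, at 98.3, 399 and 27.8 CPM in WT mice 2 to 4, from 2 to 25 UMIs each, and at 83.5, 14.4, 369 and 168 CPM in KO mice 1 to 4, and Hspa1a alone averaged 89.1 CPM in WT and 104 CPM in KO mice. CD8 T-like cells overlapped as well, at 116, 121, 67.9 and 154 CPM in WT and 140, 58.7, 118 and 18.3 CPM in KO mice. A few other members also separated by genotype in these smaller classes, not always lower in the KO. With so few mice such separations can arise by chance. The share of all genes that separated there is not given, so these are descriptions only. Hspe1 in B-like cells averaged 239 CPM in WT and 436 CPM in KO mice, every KO mouse above every WT mouse. Hsp90aa1 in CD8 T-like cells did the same, at 344 and 490 CPM. Hsph1 in Treg-like cells averaged 89.5 CPM in WT mice 2 to 4 and 23.9 CPM in KO mice, every WT mouse above every KO mouse. WT mouse 1, in which Hsph1 was low in all 6 tested classes, had too few Treg-like cells to be included.

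Over 74 sums of a mouse and a class, the genes whose log2 level ran most like Hspd1 were Cct6a (Pearson r = 0.910), Cct3 (0.907), Ssb (0.886), Prmt1 (0.884) and Ppm1g (0.879), among 8592 genes. For the sum of Hspa1a and Hspa1b they were Hs6st1 (0.672), Lemd2 (0.655), Ifi209 (0.649), Ifi211 (0.649) and Snx3 (0.638), among 8591. These points share mice, libraries and depth, so the values are descriptions.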
